A study of Mus musculus with 6 samples.

Results

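Immediate early response genes are the genes a cell switches on first when it is stimulated, without making new protein beforehand. The set described here holds 10 of them: the AP-1 subunits Fos, Fosb, Jun and Junb, the transcription factors Egr1 and Atf3, the immediate early response genes Ier2 and Ier3, the phosphatase gene Dusp1 and the RNA decay factor Zfp36. Every probe that the platform annotation gives to one of these symbols was taken, which gave 11 probes of the 45281 on each array and 10 genes of 19057 with a probe.

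The arrays measured RNA of whole colon from C57BL/6 mice aged 6 weeks, 3 samples labelled control and 3 labelled Setd2 KO. Setd2 encodes the methyltransferase that places the third methyl group on lysine 36 of histone H3. The labels name no Cre driver, no allele and no treatment, so the cells that lost Setd2 are not known here, and the control genotype is given as control alone. They number the samples as replicates without saying that each came from a separate animal, and the p-values therefore cover the variation among these samples, which may be technical.

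Growth factors, stretch, wounding and cell stress act through MAP kinases on factors already in place, chiefly SRF with its ETS partners and CREB, and these turn the genes on within minutes. The messenger RNAs are short-lived, and several of the products close the loop: DUSP1 removes phosphate from MAP kinases, and ZFP36 (tristetraprolin) speeds the decay of AU-rich messages. In intestine the genes respond to damage, to microbial and dietary signals and to the handling of tissue, so their level in a dissected organ also records its recent history. In whole tissue, fewer cells that express a gene and less RNA per cell cannot be told apart.

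All values are the deposited normalized intensities, either as they stand or as log2, and where 3 values are given for a group they stand in the order of the replicate numbers. Setd2 itself had intensities of 374, 600 and 329 in control colon and 201, 119 and 146 in KO colon at its brightest probe, so the libraries labelled KO were the lower ones there. At its other probes, both dimmer, the groups overlapped. The log2 differences there were -0.64 and -0.02, the latter with control 2 at the floor. Whether any of these probes lies inside or outside the deletion is not known here. Of the 15 measured colon epithelium markers, among them Epcam, Cdx2, Muc2 and Car1, none was at the array floor of 1 on any array. Control 2 stood apart from the other arrays: over the 10308 features with a mean above the 70th percentile of all probes (3.92 on the log2 scale), here called bright, its median correlation with the other arrays was 0.712, against 0.901 to 0.945 for the other 5. It was the highest of the 6 arrays for 46.5% of bright features and the lowest for 30.0%. The values of the members and of the related gene lists, but not of the cell markers, are therefore also given without it.

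RefSeq's GRCm38.p6 promoter windows matched 8 of the 10 members, and not Egr1 or Ier2. The 250 bases before each start were searched on both strands for TGACNTCA (the full cyclic AMP response element with its middle base free), for its core TGACG (contained in the full element where that base is G), for TATAAA, and for the CArG box, the site that SRF binds. TGACG was found in 5 of the 8 windows (Fos, Fosb, Junb, Atf3 and Dusp1), and in 17.8% of all 32851 windows of this length. TGACNTCA was found in Jun and Dusp1, and in 7.49% of all windows. The CArG box was found in Zfp36 and in 1.47% of all windows, and TATAAA in Fos and in 12.4%. These matches describe letters in the window, not bound sites.

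The 200 bases before the start are printed 5′ to 3′ for Dusp1, the 1 member whose groups did not overlap, for Jun, whose control arrays ran in the same order though its KO arrays did not, for Fos, and for Zfp36, whose control 2 value ran the other way. Capitals mark TGACNTCA and TGACG, with TATAAA in Fos, and in Zfp36 the CArG box alone. The windows lie at chr17:26508473-26508672 (minus strand), chr4:95052223-95052422 (minus strand), chr12:85473690-85473889 (plus strand) and chr7:28379229-28379428 (minus strand) in that order.
Dusp1: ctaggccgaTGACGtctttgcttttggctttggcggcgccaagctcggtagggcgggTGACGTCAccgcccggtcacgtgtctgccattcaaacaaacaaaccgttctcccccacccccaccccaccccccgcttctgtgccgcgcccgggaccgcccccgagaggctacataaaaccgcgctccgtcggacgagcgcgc
Jun: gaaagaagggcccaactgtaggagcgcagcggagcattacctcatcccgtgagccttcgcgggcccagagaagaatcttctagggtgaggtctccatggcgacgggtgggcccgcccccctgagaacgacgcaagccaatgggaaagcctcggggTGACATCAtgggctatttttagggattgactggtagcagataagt
Fos: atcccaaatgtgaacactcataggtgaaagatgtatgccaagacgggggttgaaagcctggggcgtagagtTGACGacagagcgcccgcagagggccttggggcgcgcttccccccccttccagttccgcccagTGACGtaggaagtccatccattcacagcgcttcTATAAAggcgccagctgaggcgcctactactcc
Zfp36: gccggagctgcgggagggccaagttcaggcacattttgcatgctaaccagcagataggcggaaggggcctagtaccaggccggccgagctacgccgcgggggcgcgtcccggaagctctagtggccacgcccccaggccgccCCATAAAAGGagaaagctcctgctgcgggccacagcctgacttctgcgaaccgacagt
The full element of Dusp1 ends 136 bases before the start, and that of Jun ends 38 bases before it. In Zfp36 the CArG box ends 49 bases before the start.

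KO was compared with control by limma over 18918 features, with each gene at its brightest probe, and differences are KO minus control on the log2 scale. Of the 10 members, 9 passed the filter on dim probes, and all 9 were bright. KO means were lower than control means for 8 of these 9 (55.4% of all features were lower in KO, and 56% of bright ones), with Junb the exception. None passed an adjusted p of 0.05, as none of all features did (0%), and 0 of the 9 had an unadjusted p under 0.05 (4.3% of all features). The groups did not overlap for Dusp1 alone, with KO lower (5.31% of all features and 4.7% of bright ones). The median difference of the 9 members was -0.54, against -0.09 over all features and -0.07 over bright ones. Without control 3 the members' median was -0.12 and that of all features -0.16, so the members were then not the lower of the pair. Without control 2 the medians were -0.42 and -0.00087, and without control 1 they were -0.76 and -0.15.

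**Figure D1:**
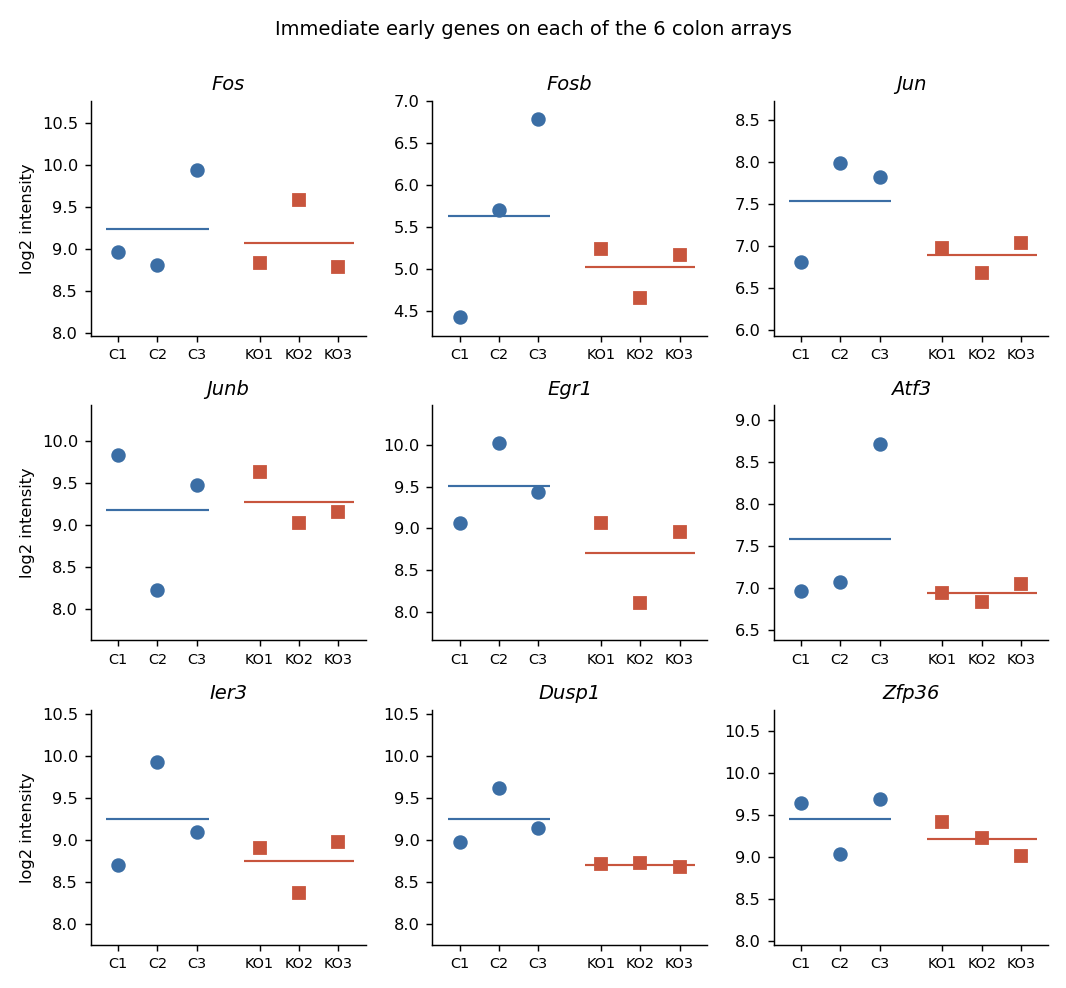
Log2 intensity of the 9 measured members on each array, control in blue circles (C1 to C3) and KO in red squares (KO1 to KO3), with a line at each group's mean and the same span of 2.8 log2 units in every panel. Dusp1 is the panel in which every KO point lies under every control point. Fosb and Atf3 have 1 high array, control 3.

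Among the AP-1 subunits, Fos, the partner that binds DNA only as a dimer with a Jun protein, had intensities of 498, 450 and 983 in control colon and 454, 766 and 443 in KO colon. Control 3 and KO 2 were high, the other 4 arrays lay close together, and the groups overlapped. The log2 difference was -0.17 (SE 0.49, limma adjusted p = 0.962), with a 95% interval from -1.35 to 1.01. Without control 3 it was 0.18, the opposite sign, and without control 2 it was -0.38.

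Fosb, the close relative of Fos, had intensities of 21.4, 51.9 and 110 in control colon and 37.6, 25.2 and 35.9 in KO colon. Its control arrays spanned 5.13-fold, the widest span among the members, and held both the lowest array of all 6 (control 1) and the highest (control 3). The log2 difference was -0.62 (SE 0.66, limma adjusted p = 0.940). Without control 3 it was -0.04, without control 1 it was -1.22, and without control 2 it was -0.58.

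Jun, the subunit that can also pair with itself, measured 112, 254 and 227 in control colon and 126, 102 and 132 in KO colon. Control 2 and control 3 lay above all KO arrays, while control 1 lay among them. The log2 means were 7.54 ± 0.64 (SD, n = 3) in control colon and 6.90 ± 0.19 in KO colon, a difference of -0.64 (SE 0.46, limma adjusted p = 0.940). It was -1.01 without control 1 and -0.42 without control 2.

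Junb, which can take the place of Jun in the dimer and is a weaker activator, measured 911, 299 and 714 in control colon and 791, 522 and 572 in KO colon. It was the only measured member with a higher mean in KO (difference 0.09, SE 0.54, limma adjusted p = 0.982), and control 2 was its lowest array. Without control 2 the difference was -0.38, and without KO 1 it was -0.09. A second Junb probe was at the floor of 1 on 5 of 6 arrays, with 1.68 on KO 3, and carries no level.

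Egr1, a zinc finger factor of the growth response, had the largest difference among the members. It measured 535, 1037 and 693 in control colon and 537, 278 and 495 in KO colon. Control 2 was high, KO 2 was low, and the groups overlapped by a narrow margin, since control 1 (9.06 on the log2 scale) lay just under KO 1 (9.07). The log2 means were 9.51 ± 0.48 (SD, n = 3) in control colon and 8.71 ± 0.52 in KO colon, a difference of -0.79 (SE 0.47, limma adjusted p = 0.940) with a 95% interval from -1.93 to 0.34. The difference was -0.54 without control 2 and -0.50 without KO 2, the arrays at the ends. The exact permutation test gave p = 0.2, where 0.1 is the smallest that 3 arrays against 3 allow.

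Atf3, a stress-induced factor that represses many of its targets, measured 124, 135 and 421 in control colon and 122, 114 and 132 in KO colon. Only control 3 stood apart, and the other 5 arrays lay between 114 and 135. The log2 difference was -0.65 (SE 0.57, limma adjusted p = 0.940), and it was -0.08 without control 3 and -0.90 without control 2. Its KO arrays had an SD of 0.10, and 8.31% of bright features had a smaller one.

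Of the IER genes, Ier3, a regulator of stress-induced cell death and of NF-kB and ERK signals, measured 417, 978 and 546 in control colon and 481, 330 and 503 in KO colon. Control 2 was the highest array and KO 2 the lowest, and control 1 lay inside the KO range. The log2 difference was -0.49 (SE 0.48, limma adjusted p = 0.940), and -0.15 without control 2. Ier2, a nuclear protein of the same family of early genes, did not pass the filter. Its single probe was at the floor on control 3, KO 1 and KO 2 and reached 3.24 on control 2, so its level in these samples was not measured.

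Dusp1, the phosphatase that inactivates p38, JNK and ERK, measured 503, 787 and 565 in control colon and 419, 422 and 409 in KO colon. Every KO value was under every control value. The KO arrays spanned 1.03-fold against 1.57-fold in control, and the KO SD of 0.025 on the log2 scale was smaller than that of all but 0.563% of bright features. The log2 means were 9.25 ± 0.34 (SD, n = 3) in control colon and 8.70 ± 0.025 in KO colon, a difference of -0.54 (SE 0.38, limma adjusted p = 0.940) with a 95% interval from -1.46 to 0.37. The exact permutation test gave p = 0.1, the smallest possible. The difference lay between -0.68 (without control 1) and -0.35 (without control 2) when single arrays were left out.

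Zfp36, the decay factor, measured 800, 524 and 830 in control colon and 684, 599 and 516 in KO colon. Control 1 and control 3 lay above all KO arrays, while control 2 was lower than KO 1 and KO 2. The log2 difference was -0.24 (SE 0.40, limma adjusted p = 0.947), and -0.45 without control 2, where the groups no longer overlapped.

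**Figure D2:**
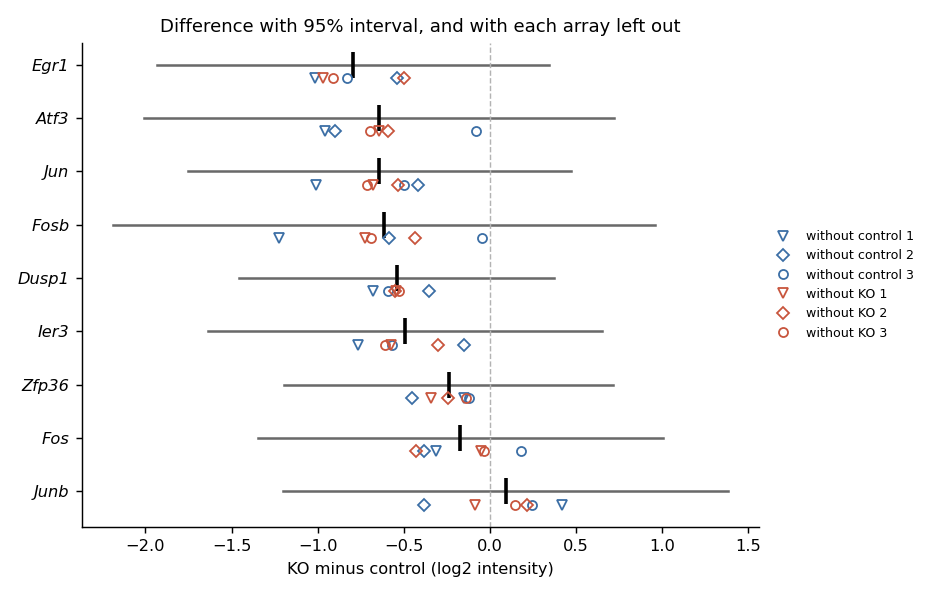
KO minus control on the log2 scale for each measured member, with the main value (black tick), its 95% interval from limma (grey line) and the value with 1 array left out (open symbols, blue for control and red for KO). Every interval crosses 0. The Fosb, Atf3 and Fos symbols nearest to or beyond 0 on the right are those without control 3.

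The control arrays carried most of the spread. Control SDs were larger than KO SDs for 8 of 9 members, and for 79.7% of bright features. The median SD of the members was 0.63 in control and 0.32 in KO, against 0.63 and 0.31 over bright features, so the members' typical spread was close to that of bright features in general. Control 3 lay above all 3 KO arrays for 8 of 9 members, all but Junb, where 22.5% of bright features showed this. Control 2 did so for 6 members (50.7% of bright features). Control 1 did so for 3, namely Junb, Dusp1 and Zfp36 (24.2%). Without control 1 the groups did not overlap, with KO lower, for 6 members (Fosb, Jun, Egr1, Atf3, Ier3 and Dusp1), and for 13.5% of bright features. Without control 3 this held for Dusp1 alone (14.8%), and without control 2 for Dusp1 and Zfp36 (6.89%). No KO array exceeded all control arrays for any of the 9 members, where KO 1, KO 2 and KO 3 did so for 18.7%, 16.8% and 13.6% of bright features.

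The members did not share 1 pattern over the arrays. Likeness was measured as the root mean square difference between 2 genes over the 6 arrays, after each gene's mean was subtracted. Egr1, Ier3, Jun and Dusp1 were alike, with values between 0.21 (Egr1 and Ier3) and 0.34 (Egr1 and Dusp1), and control 2 was the highest array for each. How many other genes lay as near depended on the gene: Egr1 was nearer to Ier3 than to 99.8% of bright features, but Dusp1 was nearer to Egr1 than to only 75.5%. Measured from Dusp1, many other genes thus lay as near. Fosb and Atf3 (0.36) were highest on control 3. Junb and Zfp36 (0.36) had their low control value on control 2, and Junb was farthest from Fosb (1.01). Among the members Fos was nearest to Zfp36 (0.39, nearer than 95.1% of bright features), with its family member Fosb farther away (0.68, nearer than 54.2%). On control 3 all 9 members lay above their own mean, on KO 3 none did, on KO 2 only Fos did, and on KO 1 only Junb and Zfp36 did.

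**Figure D3:**
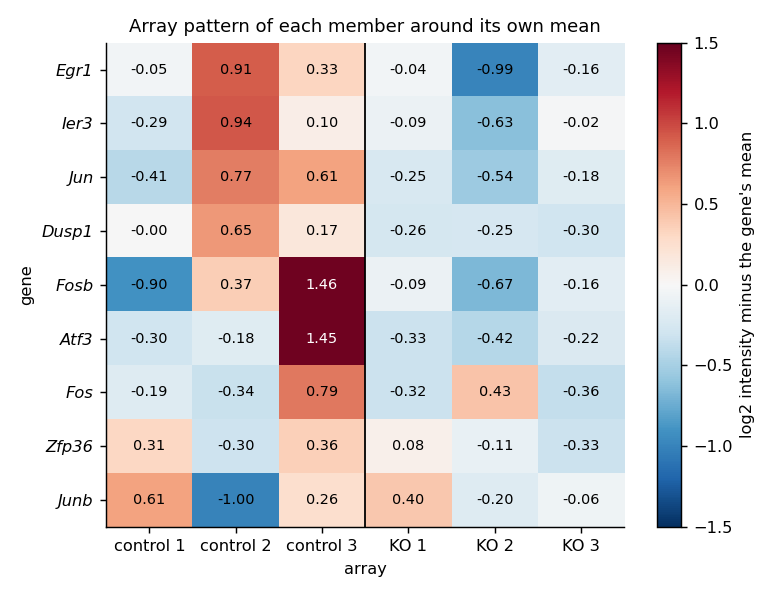
Log2 intensity of each measured member minus its own mean over the 6 arrays, from blue (below) to red (above), with rows ordered by likeness and a line between control and KO arrays. Red cells gather on control 2 and control 3. Fosb (1.46) and Atf3 (1.45) on control 3 are the largest values, and Junb on control 2 and Egr1 on KO 2 (-0.99) the lowest.

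Outside the set, the named bright genes whose pattern was nearest to that of Fos were Ccnc (0.13), Txlng (0.15), Wsb1, Nat2 and Ido1 (each 0.18). Ccnc, which encodes cyclin C of the Mediator kinase module, measured 5.89, 5.99 and 6.84 on the log2 scale in control colon and 5.70, 6.54 and 5.54 in KO colon. Ido1, the tryptophan-degrading enzyme induced by interferon, measured 8.60, 8.03 and 9.74 in control colon and 8.29, 9.02 and 8.24 in KO colon. The 5 were picked for this order of arrays, which is therefore no finding about them.

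Related genes were read from 5 lists. Their counts stand beside 55.4% of all features with a lower mean in KO and a median of -0.09 over all features. Of 13 measured further AP-1, EGR and NR4A genes, 11 had lower means in KO and 0 passed the adjusted threshold, with a median difference of -0.46. Without control 2 the count was 8 of 13 and the median -0.16. The list's median also depended on the handling of dim probes. It was -0.15 (9 of 13 lower) with the mean of each gene's probes, and -0.19 with an offset of 16 or with values under 8 set to 8. Over the 6 bright genes of the list it was -0.32. Its bright AP-1 family genes differed by -0.46 (Batf2, SE 0.45), -0.45 (Jund, SE 0.53), -0.19 (Fosl2, SE 0.39) and -0.15 (Jdp2, SE 0.49), and the groups overlapped for each. The 4 of smallest p were dim. Mafk, a small MAF protein, was at the floor on control 2, with a mean difference of 1.95. Batf, a partner of Jun in lymphocytes, was at the floor on control 3, KO 1 and KO 3 (-1.61). Egr2 was at the floor on KO 2 (-1.15), and Egr3 measured 4.15 ± 0.20 (SD, n = 3) in control colon and 3.48 ± 0.68 in KO colon. The limma adjusted p of these 4 was 0.940.

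Of 41 further rapid response genes, 32 had lower means in KO, 0 passed and the median was -0.28, with counts of 28 to 31 when single arrays were left out. The count was 31 and the median -0.25 without control 2. Csrnp1, a nuclear protein induced by AXIN1, was the bright gene of smallest p. It measured 5.57, 6.19 and 8.12 on the log2 scale in control colon and 5.59, 3.88 and 4.31 in KO colon, a difference of -2.03 (SE 0.80, limma adjusted p = 0.940). Its highest array was control 3, as for Fosb and Atf3, and KO 1 lay just above control 1. Thbs1, a matrix glycoprotein, was dim and differed by -1.16 (SE 0.49). Myc, at its brightest probe, gave the floor value in every control sample and 1.89 to 3.15 in KO samples, and Gem, a small GTPase, between 1.76 and 2.73 on control arrays and at the floor on all KO arrays (limma adjusted p = 0.400 for each).

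Of 13 further feedback phosphatases, Sprouty and Spred inhibitors and ZFP36 relatives, 11 had lower means in KO, with a median of -0.21, and 0 passed. With the mean of each gene's probes 8 of 13 were lower and the median was -0.12 (52.0% of all features were lower). An offset of 16 gave 12 of 13 and -0.11. Over the 7 bright genes of the list the median was -0.12. The count was 12 and the median -0.17 without control 2, 8 and -0.13 without KO 1, and 10 and -0.38 without KO 3. The median was -0.34 without control 1. Zfp36l1, a near relative of Zfp36, measured 10.60 ± 0.13 (SD, n = 3) in control colon and 10.49 ± 0.27 in KO colon. Zfp36l2, another, was dim and passed the filter only through its control values. It lay between 2.02 and 3.29 on the log2 scale in control samples and between the floor and 1.44 in KO samples (difference -2.19, SE 0.58, limma adjusted p = 0.627). Dusp4, a nuclear ERK phosphatase, was dim and differed by -0.78 (SE 0.45). Its groups did not overlap, and nor did those of Zfp36l2 (2 of 13 genes with KO lower, against 5.31% of all features). Dusp14 differed by 1.38 with control 2 at the floor, and the ERK inhibitor Spred2 by -0.85 (SE 0.57).

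The kinases and factors upstream did not lean one way: 10 of 19 had lower means in KO, with a median of -0.15 and a median of 0.03 over the 13 bright ones. Without control 2 the count was the same and the median -0.0044, without KO 3 the median was -0.03, and without KO 1 it was -0.07. Srf, the factor of the CArG box, measured 8.98 ± 0.70 (SD, n = 3) in control colon and 8.68 ± 0.29 in KO colon. The JNK gene Mapk8 differed by -0.66 (SE 0.48), with KO below control on every array. Map2k6, a kinase of p38, differed by 0.90 (SE 0.48), with KO above control on every array. The margins were narrow: 5.50 on KO 1 against 5.53 on control 1 for Mapk8, and 4.50 on KO 3 against 4.45 on control 3 for Map2k6. Over all features the groups did not overlap for 5.31% with KO lower, and for 639 of 18918 with KO higher. Elk4, an ETS partner of SRF, differed by 0.99 with control 2 low, and Creb1 by -0.75 (SE 0.75). The limma adjusted p of these 4 was 0.940.

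Heat shock genes respond to warming and to handling of tissue. Of 8 measured, 5 had lower means in KO, with a median of -0.23 whose sign turned on single arrays and on the probes used. It was 0.09 (2 of 8 lower) without control 1, -0.05 (4 of 8) without control 2, -0.52 (7 of 8) without control 3 and 0.08 (5 of 14 probes) with every probe as its own feature. It was -0.12 without KO 2 and -0.14 without KO 3. Hspa1a measured 9.17, 7.15 and 6.15 on the log2 scale in control colon and 8.40, 6.16 and 5.90 in KO colon. Within each group it was thus highest on replicate 1, and so were Hspa1b, Hsph1, Dnajb1, Hspa8 and Bag3, and Junb among the members. Fosb, Jun, Egr1, Atf3, Ier3 and Dusp1 had their lowest control value on control 1. Hspb1 ran the other way, with its lowest value of each group on replicate 1, and Hsp90aa1 was highest on control 2 and KO 3. Most of the list thus had its highest value of each group on replicate 1, while the order of replicates 2 and 3 differed among these genes. The share of all features with this trait was not counted. Over bright features the deviations of control 1 and KO 1 from their group means correlated at 0.35. The relation of the heat shock genes to the members was not tested. Hsp90aa1 differed by -0.34 (SE 0.51) and Hsph1 by -0.31 (SE 0.57).

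**Figure D4:**
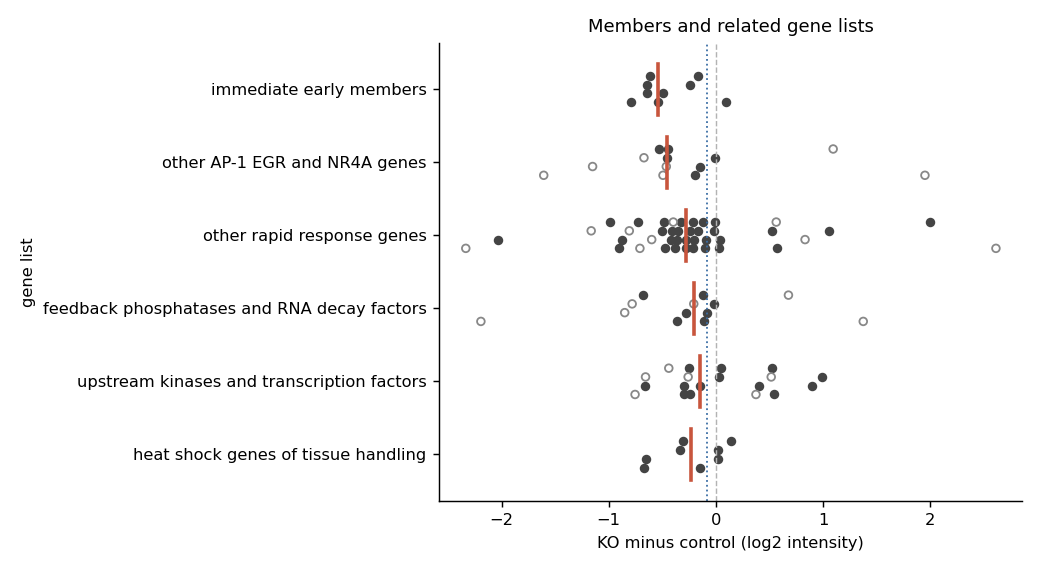
KO minus control on the log2 scale for each measured gene of the set and of the 5 related lists, with bright genes filled and dimmer genes open. The red bar is each list's median (-0.54 for the immediate early genes), the dotted line the median of all features (-0.09), the dashed line 0, and the vertical scatter within a list has no meaning.

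Immediate early genes are active in many cell types, so markers of the cells in colon were set beside them. No marker passed the adjusted threshold (smallest limma adjusted p = 0.810, for Cd3d). Of 5 measured lymphocyte markers, 4 had lower means in KO. Their summed intensity was 242 to 731 on control arrays and 164 to 206 on KO arrays, without overlap. Their mean log2 levels overlapped, at 4.48 to 5.74 on control arrays and 4.18 to 4.83 on KO arrays. Gene by gene, the groups did not overlap for Cd3d alone (5.31% of all features had KO lower without overlap). Cd8a gave the floor value on control 1 and control 3. Of 6 endothelial markers, 4 had lower means in KO, and none was at the floor. Their sums were 394 to 630 on control arrays and 320 to 378 on KO arrays, again without overlap. Egfl7, the brightest, was the only one whose groups did not overlap, and Pecam1 and Emcn were highest on control 2. The mean log2 levels of this list overlapped, at 4.58 to 5.11 on control arrays and 4.57 to 5.09 on KO arrays. Of 9 smooth muscle markers, 8 had higher means in KO, and none was at the floor. KO lay above control on every array for Myh11, Myl9 and Smtn (639 of all 18918 features). On control 2 Myh11 and Myl9 were low, at 6.17 and 6.08 on the log2 scale, against 10.01 to 10.71 on control 1 and control 3. Actg2, Des, Tagln, Cnn1 and Lmod1 were highest on control 2 and differed by 0.01, 0.02, -0.03, 0.16 and 0.20. The sums of the smooth muscle list overlapped, at 22698 to 38120 on control arrays and 29009 to 43566 on KO arrays. Sums also overlapped for mast cell markers (5 measured, 4 lower in KO), which were highest on control 3, at 563 against 284 to 426 on the other arrays, with Mcpt4 at the floor on control 1, control 2 and KO 1 and Fcer1a on control 2 and KO 1. Those of epithelial markers (15 measured, 4 lower in KO) overlapped too, at 52851 to 71516 on control arrays and 68521 to 72693 on KO arrays. Car1 differed by 3.30, at 8.85 and 8.11 (log2) on control 1 and control 2 against 13.38 to 13.73 on the other arrays. Aqp8 differed by 2.03, with control 2 and control 3 low, and the dim Fcgbp by -2.35. Sums overlapped as well for fibroblast (8 measured, 4 lower in KO), myeloid (4 measured, 1 lower) and enteric neuron and glia markers (5 measured, 2 lower). The part of these cells in the members' values was not tested.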

How the data were processed

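RNA of mouse colon was hybridised to Illumina bead arrays, 1 per sample, 3 control and 3 KO. Per the labels' protocols, RNA was taken up in Trizol, column-purified with DNase I and amplified into biotinylated cRNA. The authors deposited normalized probe intensities on a linear scale, with a floor of 1 and with 1 median (3.82) shared by all arrays. For the software and the background correction the sources used here give nothing. A table of unnormalized values was not used, since its 12 value columns carry names that match no label.

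Intensities were log2 transformed without offset. Of the probes, 34885 had 1 gene symbol, 18 several and 10378 none, by the platform annotation. Probes with a mean above the 40th percentile (0.96) were kept, and each gene was represented by its brightest probe, with unnamed probes as features of their own (18918 features). The comparison of KO with control used limma 3.58.1 (R 4.3.3; lmFit, eBayes, 2-sided, Benjamini-Hochberg over all features, threshold 0.05), and the script was tested on simulated data. Exact permutation tests used scipy 1.17.1. Differences carry the standard error of the limma fit, and their precision is limited by the number of arrays.

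The members and gene lists were chosen with earlier results of these data known. Named were all members, up to 4 genes of smallest p in each related list, Setd2 and the 5 genes nearest to Fos. Other genes (Batf2, Jund, Fosl2, Jdp2, Hspb1, Dnajb1, Hspa8, Bag3, Srf, Zfp36l1 and the marker genes) were named for their role or their order of arrays after values were seen. Same-numbered control and KO arrays had deviations from their group means that correlated at 0.35, -0.16 and 0.13 over bright features. For arrays of unlike number the range was -0.48 to 0.23. With 3 arrays per group these values cannot show whether the numbers pair the samples, and the main fit took the samples as unpaired. Alternatives covered the filter, the probe choice, the offset, the floor, the normalization, the variance model, a replicate block and each array left out.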

Additional observations from a re-analysis of the deposited data

How the results depend on the processing

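Of 17 alternatives, 0 put any member past the adjusted threshold, and the smallest adjusted p of a member was 0.695. Of 153 recomputed member differences, 71 were identical to the main value, since those settings leave these probes as they are. Of the 82 that changed in value, 78 kept their sign. The exceptions were Junb, which was -0.30 with array weights and ranged from -0.38 to 0.42 with single arrays left out, and Fos, which ranged from -0.43 to 0.18. With single arrays left out the members' median ranged from -0.76 to -0.12. With the replicate number as a block, Egr1 differed by -0.79 and 0 members and 0 features passed, and the block changed no call. The count of features past the threshold was 11 without the filter on dim probes and 1 with values under 8 set to 8, against 0 in the main comparison, where 814 features had an unadjusted p under 0.05. None of those 814 was a member. Under both of these settings, and with an offset of 16, Dusp1 alone of the members had an unadjusted limma p under 0.05. So did 1085 of 29453 features without the filter, 437 of 18918 with values under 8 set to 8, and 467 of 18918 with the offset. A count of members with a lower KO mean, an alternative added after the data were seen, lay between 7 and 9. Scaling the arrays to their median over the features moved the median of all features from -0.09 to -0.0010, the split of lower features from 55.4% to 50.1%, and the members' median to -0.46. With values under 8 set to 8 that split was 64.9%. Intensities near the floor have no order, which leaves Ier2 unmeasured.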
